A study of Homo sapiens with 8 samples.

Results

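The mRNAs examined here encode the SR and speckle proteins and the hnRNP proteins, the main families of splicing regulators in human cells. The set was a fixed list of 38 protein-coding genes of GENCODE 44, with 23 genes for SR and speckle proteins and 15 for hnRNPs, out of 62700 annotated genes, of which 20046 are protein-coding and 10794 of those held at least 1 cross-link site in the series. Members were found by gene name, and every significant cross-link site on the strand of the gene was counted by its number of cDNAs and placed in the 5′UTR, the coding sequence (CDS), the 3′UTR or an intron of the canonical transcript. Because the list was proposed with earlier results of these data in view, sums over it are given below as descriptions.

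SR proteins pair RNA recognition motifs with stretches rich in arginine and serine (RS domains), bind exonic enhancers and help to define exons, and SON and SRRM2 form the core of nuclear speckles. hnRNPs coat nascent transcripts, and several of them repress nearby splice sites. Many genes of both families control their own dosage through poison exons, which carry a premature stop codon and send the transcript to nonsense-mediated decay (NMD) when they are included. Dyskerin is the pseudouridine synthase of H/ACA ribonucleoproteins, and GAR1 is another core protein of that complex. In individual-nucleotide resolution cross-linking and immunoprecipitation (iCLIP), ultraviolet light joins a protein to the RNA it touches, and the resulting cDNAs tend to end next to the cross-linked nucleotide.

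The study asked which RNAs dyskerin and GAR1 contact in the nuclei of U2OS cells, a human osteosarcoma line, after irradiation at 254 nm with 1500 J/m2. The 8 libraries formed 4 groups of 2 replicates, namely dyskerin precipitates, GAR1 precipitates, and mouse IgG controls labelled for dyskerin and for GAR1. The dyskerin antibody came from mouse and the GAR1 antibody from rabbit, so that the mouse IgG shares its species with the dyskerin antibody only. The dyskerin and GAR1 replicates are described as independent experiments, and p-values here rest on the spread between 2 libraries in each group.

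Total cDNAs at called sites were 1693951 and 1875459 in the dyskerin libraries, 585454 and 1976518 in the GAR1 libraries, 146514 and 8183 in the IgG libraries for dyskerin, and 295255 and 10701 in the IgG libraries for GAR1. Protein-coding genes held 66.1 and 64.6% of these cDNAs with dyskerin, 2.95 and 3.99% with GAR1, 55.5 and 14.8% with IgG for dyskerin and 3.09 and 9.59% with IgG for GAR1. A site was called within its own library, so these totals are what passed the call and not sequencing depth. A called site held 1.88 and 2.03 cDNAs on average with dyskerin, 23.6 and 37.0 with GAR1, 1.84 and 2.77 with IgG for dyskerin and 19.6 and 3.90 with IgG for GAR1. Replicates differed by more than sampling noise, with a chi-square per degree of freedom between 6.59 and 13.9 in the 4 groups. Of 8 genes fixed as markers of a mesenchymal osteosarcoma line, 7 had exonic cDNAs in both dyskerin libraries, COL1A2 being at 0. None of 10 markers of other cell types did so, and the only signal among them was 4 cDNAs of SNAP25 in the second dyskerin library.

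The single strongest site of each leading gene shows where in the message the dyskerin cDNAs were most numerous. The following windows of 29 nucleotides hold, for the 5 SR and speckle genes and then the 5 hnRNP genes with the most dyskerin cDNAs, the site with the highest count among those called in both dyskerin libraries. They are written 5′ to 3′ along the RNA in DNA letters from GRCh38, and the capital marks the cross-linked nucleotide. All 10 lay in the CDS.
SRRM2, exon 6, chr16:2758994-2759022, plus strand: gagcagctctcctcGacgggagagaaaga
RBM25, exon 11, chr14:73106059-73106087, plus strand: agaaagaagctgctTatcaagaggtaagt
LUC7L3, exon 9, chr17:50746590-50746618, plus strand: acacagatctcgaaGtcgggatcgaagaa
SON, exon 3, chr21:33549538-33549566, plus strand: attcccactaaaaaGtcaaagaagcataa
PNN, exon 9, chr14:39180535-39180563, plus strand: gaacaaataaataaAatggaggctaggcc
HNRNPA2B1, exon 6, chr7:26196426-26196454, minus strand: gtggcggtggaaatTtcggaccaggacca
HNRNPU, exon 1, chr1:244863882-244863910, minus strand: gcgacgatcagggtTtccaggaaggggaa
HNRNPH1, exon 3, chr5:179621369-179621397, minus strand: actgcaaaattcaaAatggggctcaaggt
HNRNPDL, exon 1, chr4:82429283-82429311, minus strand: gcaatatagaggaaTtcgcagagggatcc
HNRNPR, exon 9, chr1:23313566-23313594, minus strand: tatgcatttgttcaTtttgaagacagagg

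The LUC7L3 site was the strongest of the SR and speckle sites, with 51 and 119 cDNAs in the dyskerin libraries, 4 in the second GAR1 library and 17 in the first IgG library for dyskerin. The SRRM2 site had 38 and 89 cDNAs with dyskerin, 13 in the second GAR1 library and 8 in that IgG library. The RBM25 site, whose window runs over the end of its exon, had 41 and 98 cDNAs with dyskerin and 6 in the IgG library. Among the hnRNP genes the HNRNPA2B1 site led with 72 and 102 cDNAs in the dyskerin libraries, 4 in the second GAR1 library and 9 in the first IgG library. Scaled to the library total, the first IgG library for dyskerin was above both dyskerin libraries at the LUC7L3, SRRM2 and HNRNPA2B1 sites. It was between them at the RBM25 site. The weakest of the 10 was that of HNRNPR, with 2 and 10 dyskerin cDNAs. A cross-linked U stood at 5 of these 10 positions, 4 of them in hnRNP genes.

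In all members together, the dyskerin libraries held 13218 and 15653 sites, of which 7282 were at the same nucleotide in both, which is 55.1% of the first and 46.5% of the second. The IgG libraries were not free of these mRNAs. Of 1818 member sites in the first IgG library for dyskerin, 77.1% coincided with a site of the first dyskerin library and 81.6% with one of the second. Of 1395 member sites in the second GAR1 library, 58.6 and 60.7% did so. Over all protein-coding genes these shares were lower, at 27.5 and 26.4% between the dyskerin libraries. They were 52.4 and 50.5% for the first IgG library for dyskerin, and 27.9 and 30.3% for the second GAR1 library.

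All 38 members had cDNAs in both dyskerin libraries. In the GAR1 libraries 14 and 18 of the 23 SR and speckle genes had any, and 6 and 11 of the 15 hnRNP genes. With IgG for dyskerin these numbers were 21 and 4 for SR and speckle genes and 14 and 4 for hnRNP genes. With IgG for GAR1 they were 8 and 1 for SR and speckle genes and 5 and 2 for hnRNP genes. The shallow second IgG libraries therefore leave most members without a measured level: a count of 3 cDNAs is 367 CPM (cDNAs scaled to the total of the library) in the second IgG library for dyskerin, against 1.77 CPM in the first dyskerin library.

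**Figure D1:**
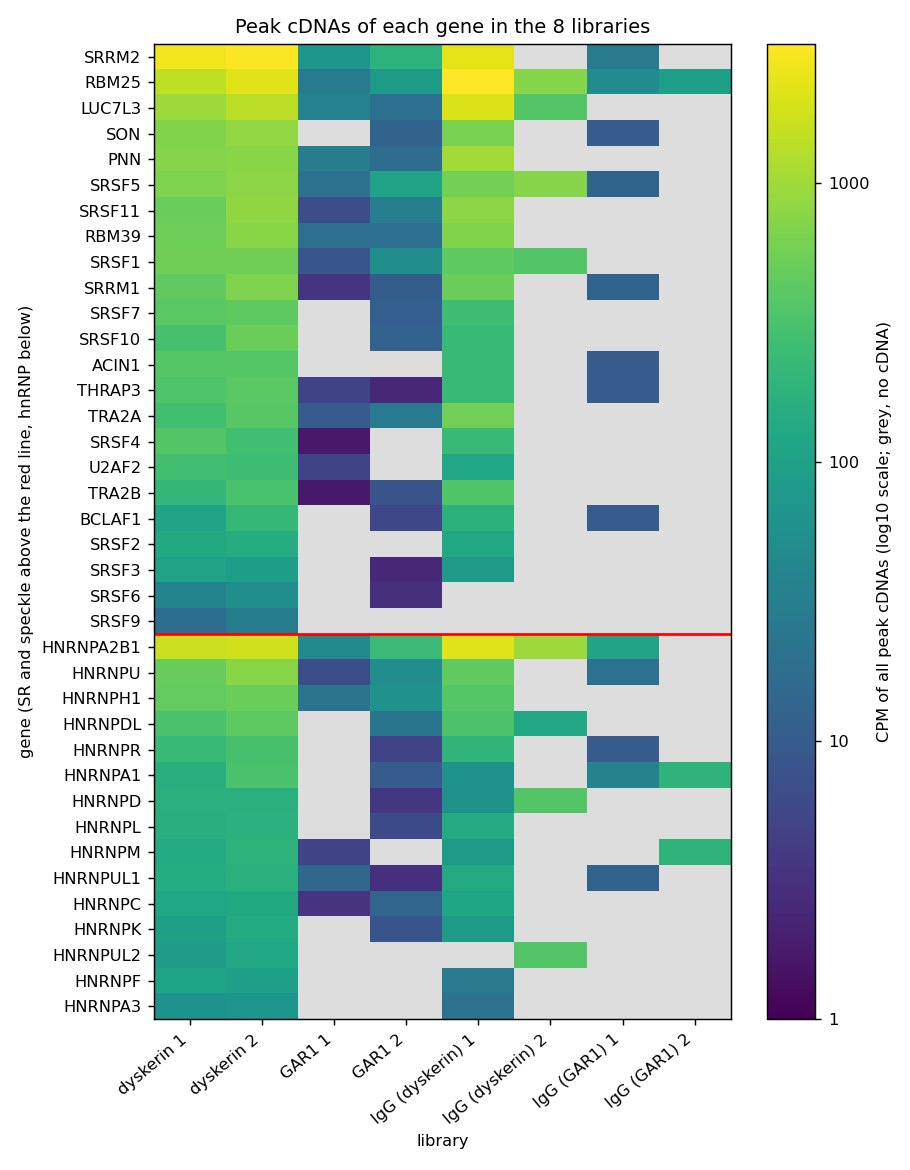
Level of each of the 38 genes (rows) in the 8 libraries (columns), in CPM of all peak cDNAs on a log color scale from 1, with grey for no cDNA. Both dyskerin libraries and the first IgG library for dyskerin are bright for most genes, GAR1 is dim, and the second IgG libraries are mostly grey.

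Scaled to all peak cDNAs of a library, the SR and speckle genes summed to 12222 and 15326 CPM with dyskerin, 244 and 605 CPM with GAR1, 14647 and 2199.7 CPM with IgG for dyskerin and 146 and 93.4 CPM with IgG for GAR1. The hnRNP genes summed to 4409 and 5306 CPM with dyskerin, 99.1 and 428 CPM with GAR1, 4198 and 1833 CPM with IgG for dyskerin and 193 and 374 CPM with IgG for GAR1. The dyskerin libraries thus lay far above the GAR1 libraries and beside the first IgG library for dyskerin. As a share of the cDNAs in protein-coding genes only, the 38 genes took 2.51 and 3.19% with dyskerin, 1.16 and 2.59% with GAR1, 3.40 and 2.72% with IgG for dyskerin and 1.096 and 0.487% with IgG for GAR1, and on this scale the dyskerin and GAR1 libraries were within 3-fold of each other. In these sums more copies of an mRNA in the nuclei and more contacts per copy cannot be told apart.

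The SR and speckle genes spread over a wide range in dyskerin. Their median of the mean dyskerin CPM was 411, between 24.1 for SRSF9 and 2864 for SRRM2. For the hnRNP genes the median was 165, between 65.1 for HNRNPA3 and 1713 for HNRNPA2B1. The median of the 9916 protein-coding genes with a dyskerin cDNA was 11.1. Among these, SRRM2 ranked 10, RBM25 21 and HNRNPA2B1 23.

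Because longer transcripts collect more sites, levels between genes were compared as exonic CPM per kilobase of mature canonical mRNA. On this scale SRSF5, a classical SR protein, was the highest of its family with 393 and 441 CPM per kb, followed by SRRM2 (266 and 303), RBM25 (194 and 293) and PNN (205 and 208). SRSF6, another classical SR protein, was the lowest with 7.19 and 8.57 CPM per kb. HNRNPA2B1 led the hnRNPs with 435 and 455 CPM per kb, ahead of HNRNPH1 with 168 and 187, and HNRNPA3 was the lowest with 9.20 and 10.6. The ranges of SRSF5 and HNRNPA2B1 overlapped, as did those of RBM25 with SRRM2 and of PNN with RBM25, so their order is not set by these 2 libraries.

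The median over genes was 76.8 CPM per kb for SR and speckle genes, 38.6 for hnRNP genes and 2.41 for 8403 protein-coding genes with exonic cDNAs. Summed over all genes of a family and divided by their summed length, the level of SR and speckle genes over that of hnRNP genes was 1.53 and 1.60 in the dyskerin libraries (mean 1.56 ± 0.056, SD, n = 2). The ratio was 1.55 and 0.809 with GAR1, 1.86 and 0.582 with IgG for dyskerin and 0.420 and 0.145 with IgG for GAR1. The excess of SR and speckle genes was therefore seen in dyskerin, in the first GAR1 library and in the deeper IgG library for dyskerin. In the first GAR1 library it rests on 112 exonic cDNAs of SR and speckle genes and 42 of hnRNP genes. It was not seen in the second GAR1 library (934 and 671) or the first IgG library for GAR1 (39 and 54). The second IgG libraries, with 15 and 15 for dyskerin and 1 and 4 for GAR1, were too shallow to show its presence or absence. Without SRRM2 and HNRNPA2B1, the leading gene of each family, the mean dyskerin ratio was 2.02.

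**Figure D2:**
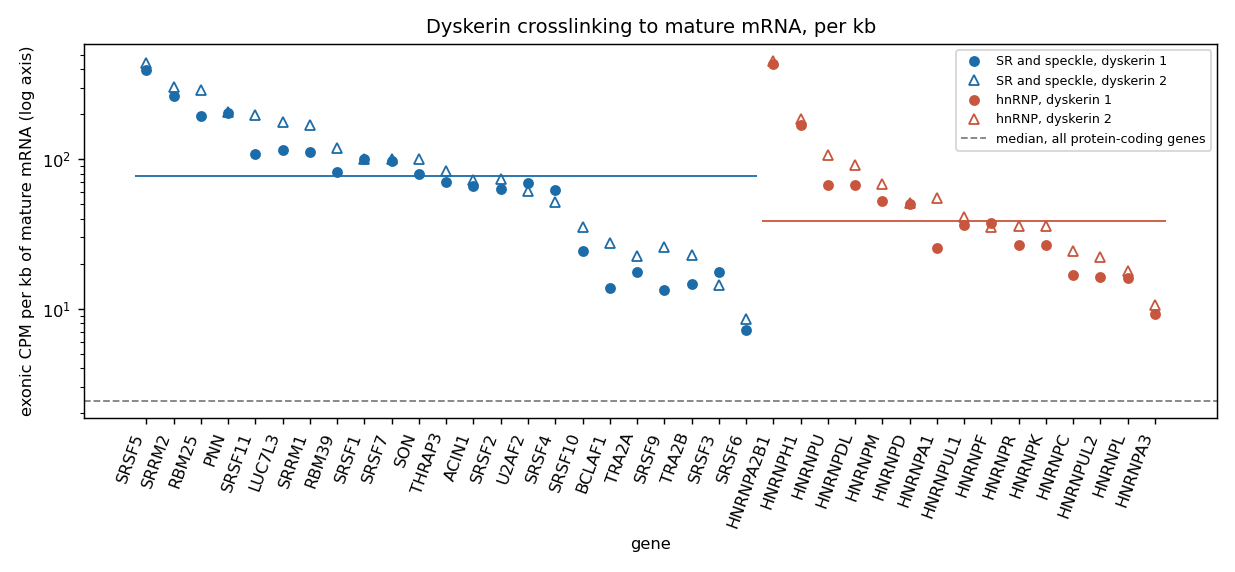
Exonic CPM per kb of mature mRNA (log axis) of each gene in the first (circle) and second (triangle) dyskerin library, SR and speckle genes left and hnRNP genes right, with a solid line at the median of each family and a dashed line at the median of all protein-coding genes (2.41). All 38 genes lie above the dashed line, and both families span more than 40-fold.

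SRRM2, a large RS-rich scaffold of speckles and of the catalytic spliceosome, had 2685 and 3042.5 CPM in dyskerin, 70.03 and 183 CPM in GAR1, 2300.1 and 0 CPM in IgG for dyskerin and 27.1 and 0 CPM in IgG for GAR1. RBM25, a factor that contacts the U1 small nuclear ribonucleoprotein (snRNP), had 1478 and 2208 CPM in dyskerin, 27.3 and 79.9 CPM in GAR1, 3085 and 733 CPM in IgG for dyskerin and 50.8 and 93.4 CPM in IgG for GAR1. For both genes every dyskerin library was above every GAR1 library. Both dyskerin libraries were above both IgG libraries for SRRM2, whereas the first IgG library for dyskerin was the highest of all for RBM25. LUC7L3, a relative of the yeast U1 snRNP protein Luc7, had 982 and 1369 CPM in dyskerin, 35.9 and 18.7 CPM in GAR1, 1993 and 367 CPM in IgG for dyskerin and 0 in both IgG libraries for GAR1.

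SON, the other speckle scaffold, had 690 and 856 CPM in dyskerin, 0 and 13.2 CPM in GAR1, 635 and 0 CPM in IgG for dyskerin and 10.2 and 0 CPM in IgG for GAR1. PNN, a speckle protein that also binds the exon junction complex, had 734 and 757 CPM in dyskerin, 29.04 and 17.7 CPM in GAR1, 1031 and 0 CPM in IgG for dyskerin and 0 in IgG for GAR1. SRSF5 had 659 and 781 CPM in dyskerin, 20.5 and 105 CPM in GAR1, 587 and 733 CPM in IgG for dyskerin and 13.5 and 0 CPM in IgG for GAR1. For SRSF5 the ranges of dyskerin and of IgG for dyskerin overlapped, and the second of these IgG libraries rests on 6 cDNAs.

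HNRNPA2B1, which binds purine-rich RNA and packages nascent transcripts, had 1681 and 1745 CPM in dyskerin, 46.1 and 241 CPM in GAR1, 2116 and 978 CPM in IgG for dyskerin and 112 and 0 CPM in IgG for GAR1. HNRNPU, also known as scaffold attachment factor A, had 491 and 758 CPM in dyskerin, 6.83 and 52.1 CPM in GAR1, 444 and 0 CPM in IgG for dyskerin and 20.3 and 0 CPM in IgG for GAR1. HNRNPH1, which binds runs of G, had 452 and 516 CPM in dyskerin, 22.2 and 62.2 CPM in GAR1, 375 and 0 CPM in IgG for dyskerin and 0 in IgG for GAR1. In these 3 genes the second GAR1 library was the higher of the pair and still under every dyskerin library.

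HNRNPDL, a paralog of the AU-rich element factor HNRNPD, had 311 and 425.5 CPM in dyskerin, 0 and 22.8 CPM in GAR1, 334 and 122 CPM in IgG for dyskerin and 0 in IgG for GAR1. HNRNPR had 229.6 and 305 CPM in dyskerin, 0 and 5.06 CPM in GAR1, 198 and 0 CPM in IgG for dyskerin and 10.2 and 0 CPM in IgG for GAR1. HNRNPA1, a repressor of splice sites, had 159 and 312 CPM in dyskerin, 0 and 10.1 CPM in GAR1, 61.4 and 0 CPM in IgG for dyskerin and 37.3 and 187 CPM in IgG for GAR1. Reads aligning to several places were kept, and HNRNPA1 was the member with most cDNAs at its copies, since its 76 processed copies in the genome took 82 dyskerin cDNAs, or 9.60% of the 854 of the gene. The copies of HNRNPC took 19, those of HNRNPK 5, and those of the other members 0.

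Dyskerin over GAR1 was higher for every member at the scaling to all peak cDNAs. In a single edgeR quasi-likelihood fit over 6399 genes with Benjamini-Hochberg adjustment, all 38 were called higher at an adjusted p under 0.05, against 90.5% of all genes tested called higher and 2.7% called lower, so that the members' share is near the background. The median log2 fold change of the members was 5.44, against 6.56 for all genes. The size of these differences, and for 6 members their direction, changed with the scaling. When libraries were scaled to the cDNAs in protein-coding genes alone, the median of all genes was 5.38 and that of the members 1.32. Only 5 members were then called higher (ACIN1, SRSF4, SRSF2, HNRNPF and HNRNPA3). These 5 passed the minimum of 10 cDNAs in 2 libraries only through dyskerin, so the calls are not support for a difference. At this scaling SRSF5, HNRNPA2B1, HNRNPH1, HNRNPC, HNRNPUL1 and TRA2A had log2 fold changes of −0.61, −0.54, −0.66, −0.39, −0.07 and −0.05. TMM scaling left 6 members called, counting each site once left 9, and without either dyskerin replicate none of the 32 members still tested was called. In those fits the lone dyskerin library is assumed to vary like the other groups, and all 32 log2 fold changes stayed above 0, with medians of 5.62 and 5.03.

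At the scaling to all peak cDNAs, the log2 fold change of dyskerin over GAR1 was 4.49 ± 1.51 for SRRM2 (SE; edgeR adjusted p = 0.004285), 5.09 ± 1.55 for RBM25 (0.00172), 5.43 ± 1.75 for LUC7L3 (0.00284), 6.72 ± 1.99 for SON (0.00126), 5.00 ± 1.81 for PNN (0.00789) and 3.51 ± 1.66 for SRSF5 (0.0399). It was 3.57 ± 1.49 for HNRNPA2B1 (edgeR adjusted p = 0.0201), 4.37 ± 1.76 for HNRNPU (0.0163), 3.5 ± 1.68 for HNRNPH1 (0.0430), 4.91 ± 1.80 for HNRNPDL (0.00843), 6.37 ± 1.72 for HNRNPR (0.000441) and 5.28 ± 1.5 for HNRNPA1 (0.000805). The 3 smallest of these 12 belonged to SRSF5, HNRNPA2B1 and HNRNPH1, the same genes that fell below 0 when scaled to protein-coding cDNAs or by TMM.

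The smallest p-values in this comparison belonged to genes with few or no GAR1 cDNAs. Of the genes described next, HNRNPF, HNRNPA3, HNRNPUL2, HNRNPD, SRSF9 and SRSF6 reached the minimum of 10 cDNAs for testing in the dyskerin libraries only. ACIN1, SRSF2, SRSF3 and HNRNPM otherwise reached it only in the first IgG library for dyskerin, short of the 2 libraries required. All of these genes entered the fit through the group in which they were called higher, so their p-values are not support for a difference. ACIN1, a subunit of the ASAP complex that joins the exon junction complex, had 633 and 710 cDNAs in dyskerin and 0 in GAR1, which is at least 321-fold higher against a floor of 3 cDNAs over the GAR1 group. On the same basis SRSF2, the SR protein that is mutated in myeloid neoplasms, was at least 121-fold higher (227 and 279 cDNAs in dyskerin), HNRNPUL2 at least 89.5-fold (146 and 228), HNRNPF at least 84.7-fold (179 and 175), HNRNPA3 at least 55.7-fold (104 and 129) and SRSF9 at least 20.8-fold (31 and 56). These 6 were the members without any GAR1 cDNA at a called site. A cDNA at a site that was not called is not counted. These folds, and those below against 3 cDNAs, therefore hold for called cDNAs only. Scaled to protein-coding cDNAs, the same floor gave at least 18.4-fold for ACIN1, 6.95-fold for SRSF2, 5.14-fold for HNRNPUL2, 4.86-fold for HNRNPF, 3.20-fold for HNRNPA3 and 1.19-fold for SRSF9. The adjusted p of edgeR was between 3.18e-07 (HNRNPF) and 2.92e-05 (ACIN1) in these 6.

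The 4 other genes with the smallest p had a few GAR1 cDNAs. SRSF3, the smallest SR protein, had 174 cDNAs in each dyskerin library, 0 and 5 in GAR1, 11 and 0 in IgG for dyskerin and 0 in IgG for GAR1, with a log2 fold change over GAR1 of 5.66 ± 1.07 (SE; edgeR adjusted p = 1.86e-06). HNRNPD had 284 and 310 in dyskerin, 0 and 7 in GAR1, 9 and 3 in IgG for dyskerin and 0 in IgG for GAR1, with 6.05 ± 1.33 (2.59e-05). HNRNPM, which binds GU-rich RNA, had 233 and 342 in dyskerin, 3 and 0 in GAR1, 12 and 0 in IgG for dyskerin and 0 and 2 in IgG for GAR1, with 6.53 ± 1.46 (3.08e-05). SRSF6 had 64 and 105 in dyskerin, 0 and 6 in GAR1 and 0 in all 4 IgG libraries, with 4.38 ± 0.983 (3.44e-05). SRSF3 and SRSF6 were among the 3 lowest SR and speckle genes in dyskerin, and each of the 4 genes had fewer than 10 GAR1 cDNAs.

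Dyskerin over IgG did not separate any member. Against the IgG libraries for dyskerin, edgeR called 0 genes higher (0%) and 4 lower (0.0625%) of 6399, and 0 members. Before adjustment, 2044 genes passed 0.05 as higher and 39 as lower, with 2 members among the higher ones. These 2 were SRSF6 and SRSF9, both without any IgG cDNA, which were at least 2.44-fold and at least 1.26-fold higher in dyskerin against 3 cDNAs over the IgG group, at an edgeR adjusted p of 0.147 each. DESeq2 called 0 members as well. A total of 35 members had a fitted log2 fold change above 0 and 3 below, with a median of 0.79 against 1.93 for all genes. With a minimum of 50 cDNAs, 759 of 3567 genes (21.3%) were called higher, and without GAR1 replicate 1 or 2, which share the estimate of spread, 595 (9.34%) and 503 (7.96%) were. SRSF6 was the 1 member called in each of these 3 fits, at adjusted p = 0.0122, 0.0480 and 0.0498 from edgeR. SRSF6 and SRSF9 reached the minimum for testing in the dyskerin libraries only, so their p-values are not support for a difference from IgG. A p that misses the threshold does not show that the levels are alike.

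The log2 fold change of dyskerin over IgG was 1.23 ± 1.33 for SRRM2 (SE; edgeR adjusted p = 0.566), −0.09 ± 1.31 for RBM25 (0.973), −0.06 ± 1.45 for LUC7L3 (0.983), 1.05 ± 1.58 for SON (0.706), 0.37 ± 1.54 for PNN (0.906) and 0.14 ± 1.55 for SRSF5 (0.964). It was 0.12 ± 1.36 for HNRNPA2B1 (edgeR adjusted p = 0.965), 1.2 ± 1.59 for HNRNPU (0.657), 1.03 ± 1.59 for HNRNPH1 (0.712), 0.53 ± 1.60 for HNRNPDL (0.869), 0.92 ± 1.45 for HNRNPR (0.720) and 2.19 ± 1.54 for HNRNPA1 (0.313). Each standard error exceeded 1 on the log2 scale, more than the fold change itself in all of these genes but HNRNPA1.

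GAR1 over IgG likewise gave no called member. Against the IgG libraries for GAR1, edgeR called 0 of 6399 genes higher (0%) and 3 lower (0.0469%), while 99 higher and 410 lower genes passed 0.05 before adjustment, and the members had adjusted p-values from 0.385 to 1. Before adjustment 1 member passed as higher, HNRNPH1, and 2 as lower, ACIN1 and HNRNPA1. DESeq2 called 68 of 6399 genes higher (1.06%) and 13 lower (0.203%), with 3 members among the higher ones. These were PNN, SRSF11 and RBM39, all at 0 in IgG for GAR1, which were at least 2.07-fold, 2.67-fold and 1.91-fold higher in GAR1 against 3 cDNAs over the IgG group. Of the 38 members, 25 were at 0 in a group. HNRNPH1, with 13 and 123 cDNAs in GAR1 and 0 in IgG for GAR1, was at least 5.41-fold higher against 3 cDNAs over the IgG group, and SRSF1, with 5 and 105, at least 4.38-fold. Dyskerin over GAR1 and dyskerin over IgG use the same dyskerin libraries, so neither comparison is independent of the other.

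Other genes of the same pathways were counted against the same background. All 12 of a list of other hnRNP and related genes, such as PTBP1 and SYNCRIP, and all 10 tested of 13 other splicing factors and SR protein kinases, such as SF3B1 and CLK1, were called higher in dyskerin over GAR1, with median log2 fold changes of 5.84 and 6.77, where 90.5% of all genes were. None of the 22 was called in dyskerin over IgG or GAR1 over IgG, with medians of 4.00 and 1.2 in dyskerin over IgG.

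The contacts sat mainly in the CDS. In dyskerin, the CDS held 78.6% (95% Wilson interval 78.0 to 79.1) and 80.6% (80.1 to 81.0) of the cDNAs of SR and speckle genes, and 76.8% (75.8 to 77.7) and 78.3% (77.4 to 79.1) of those of hnRNP genes. Over all protein-coding genes the share was 42.0 and 53.8%. Introns held 16.6 and 15.4% for SR and speckle genes, 12.8 and 12.2% for hnRNP genes and 50.9 and 39.9% for all protein-coding genes. The 3′UTR held 3.17 and 2.27% in SR and speckle genes and 7.38 and 6.58% in hnRNP genes, and the 5′UTR 0.705 and 0.901% and 2.95 and 2.84%. Intervals here and below cover counting error only.

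In the second GAR1 library, the CDS share was 64.4% (61.6 to 67.0) for SR and speckle genes, 63.0% (59.7 to 66.1) for hnRNP genes and 12.5% for all protein-coding genes. In the first GAR1 library, with 143 and 58 cDNAs, it was 71.3% (63.4 to 78.1) and 63.8% (50.9 to 74.9). The first IgG library for dyskerin gave 81.6% (79.9 to 83.2) for SR and speckle genes, 89.3% (86.6 to 91.5) for hnRNP genes and 35% for all protein-coding genes. The excess of CDS in these mRNAs was therefore present in dyskerin, in GAR1 and in the deeper IgG control alike.

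**Figure D3:**
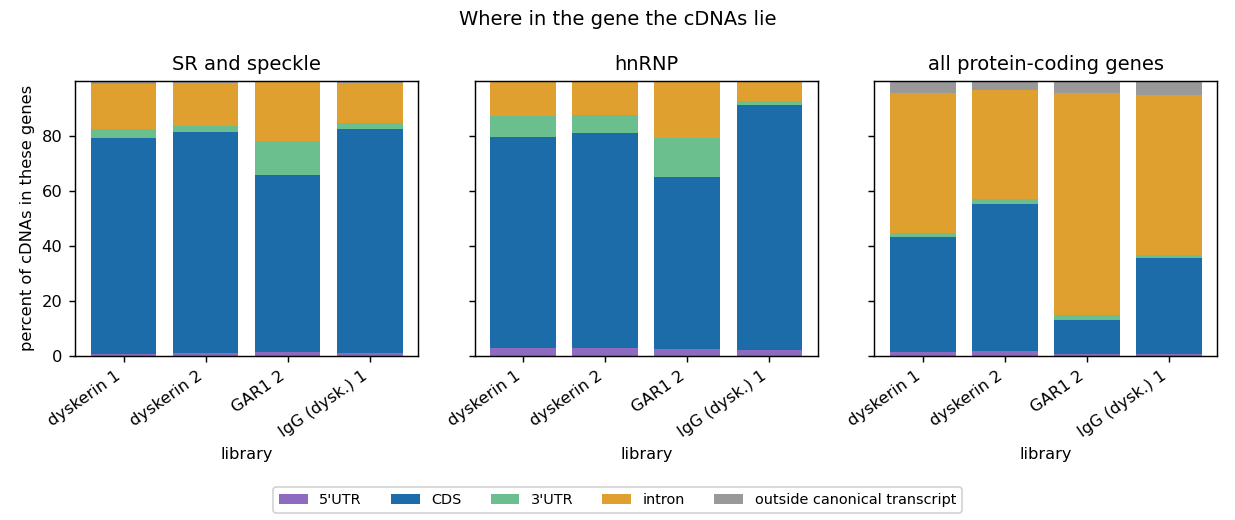
Percent of cDNAs (vertical axis) in each region of the canonical transcript for SR and speckle genes, hnRNP genes and all protein-coding genes (panels), in both dyskerin libraries, the second GAR1 library and the first IgG library for dyskerin (bars). The CDS makes up 63.0 to 89.3% in both families and 12.5 to 53.8% over all protein-coding genes.

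Per kilobase of region, the CDS of SR and speckle genes had 203 and 261 CPM in dyskerin, and their introns 4.20 and 4.91. The CDS of hnRNP genes had 143 and 176 CPM per kb, and their introns 2.07 and 2.38. All protein-coding genes had 8.08 and 10.1 CPM per kb of CDS and 0.299 and 0.229 per kb of intron. Both regions of both families thus stood above this whole, which counts the length of all annotated protein-coding genes, with or without cDNAs. In the first IgG library for dyskerin, the CDS had 253 (SR and speckle), 158 (hnRNP) and 5.65 CPM per kb (all). Introns there had 4.36, 1.12 and 0.288, so that the same excess was present in that control. Tested by region over 7199 features of all protein-coding genes, dyskerin over GAR1 was called higher for 88 member features, against 96.7% of all features called higher and 0.639% lower. These were 12 of 12 5′UTRs, 34 of 38 CDSs, 8 of 9 3′UTRs and 34 of 34 introns, where 98.4, 99.4, 96.9 and 92.4% of all features of that region were called. Without either dyskerin replicate (the lone library is then assumed to vary like the other groups), or with TMM scaling, none was. In dyskerin over IgG no member feature was called (0% of all features higher, 0.0972% lower), and in GAR1 over IgG none of any gene was.

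Individual genes departed from this pattern. SON (97.9%), PNN (97.8%), SRRM1 (94.8%) and HNRNPUL1 (93.1%) were nearly all CDS in the summed dyskerin libraries. By contrast, introns held 89.3% of the dyskerin cDNAs of TRA2A, 77.9% of HNRNPL, 70.03% of TRA2B and 58.9% of SRSF4, and between 35.9 and 48.6% of HNRNPC, SRSF10, SRSF7 and HNRNPA1. HNRNPA3 had 57.9% in the 3′UTR, SRSF1 33.1%, SRSF2 23.7% and HNRNPA1 21.1%. HNRNPK, which binds C-rich RNA, had 19.2% in the 5′UTR and SRSF3 17.0%.

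U2AF2, the large subunit of the factor that binds the polypyrimidine tract at 3′ splice sites, had 45.0% of its cDNAs outside its canonical transcript. All 429 of them (200 and 229 in dyskerin, with 18 in the first IgG library for dyskerin) lay in a longer annotated first exon on GRCh38, chr19:55654146-55655153, upstream of the canonical start at 55655035. In SRSF1, the founding SR protein, the canonical 3′UTR overlaps exons of NMD transcripts. One of these exons, chr17:58003802-58004001, held 116 of the 656 dyskerin cDNAs in the 3′UTR (17.7%), and the stretch 58004849-58005973 held 228 (34.8%).

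The intronic contacts of the SR and speckle genes were concentrated in poison exons, taken as internal exons of transcripts annotated for NMD that overlap no canonical exon. The 23 genes had 43 such exons in their canonical introns, spread over 19 genes and making up 1.70% of intron length. They held 1468 of 3428 intronic dyskerin cDNAs in the first library (42.8%, 95% Wilson interval 41.2 to 44.5) and 2074 of 4435 in the second (46.8%, 45.3 to 48.2). Per kilobase this was 105 and 135 CPM in the poison exons against 2.44 and 2.66 in the rest of the introns, a ratio of 43.2 and 50.7. Of the 43 exons 20 had dyskerin cDNAs, 15 in both libraries and 7 with at least 100 in all, and 4 exons held 2640 of the 3542 cDNAs (74.5%).

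The hnRNP genes differed in this respect. Their canonical introns held 5 such exons in 5 genes, with 6 of 958 and 0 of 1219 intronic dyskerin cDNAs, which is 0.626 and 0%. A further 7 poison exons of hnRNP genes lay outside the span of the canonical transcript. Over all protein-coding genes other than the members, 6999 such exons took 0.270 and 0.414% of intronic cDNAs on 0.0918% of intron length, a density ratio of 2.95 and 4.52. The shares with the other antibodies in SR and speckle genes were 7 of 31 (22.6%, 11.4 to 39.8) and 68 of 261 (26.1%, 21.1 to 31.7) with GAR1 and 152 of 308 (49.4%, 43.8 to 54.9) in the first IgG library for dyskerin. With GAR1 the density ratio was 16.8 and 20.3 in SR and speckle genes and 15.8 and 24.7 in genes other than the members. By this ratio the GAR1 libraries were near their own background. In the first IgG library for dyskerin the ratio was 56.2 in SR and speckle genes and 1.36 in genes other than the members. The first IgG library thus had a share as high as the dyskerin libraries, and its part in the result was not tested.

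The strongest sites of the 4 leading poison exons, and of 2 other dense intronic blocks, are shown to place these contacts. They were chosen after their values were seen, and are written as the windows above, with the cross-linked nucleotide in capitals.
TRA2A, intron 1, chr7:23522238-23522266, minus strand: ggctattttgaattGtttgaattggggaa
TRA2B, intron 1, chr3:185931679-185931707, minus strand: tagaatattgagcaAtttgtgtgaagtgg
SRSF7, intron 3, chr2:38748973-38749001, minus strand: gattgaagaaaacaTctagatgcagcgat
SRSF10, intron 2, chr1:23978156-23978184, minus strand: aagccaaagacctcTtaaggatcaggctt
SRSF4, intron 1, chr1:29178870-29178898, minus strand: cattgaggaatcatTacagaggaaaacga
HNRNPL, intron 6, chr19:38842163-38842191, minus strand: ttgatatttttattTtttctgcagtcacc

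TRA2A and TRA2B are paired SR-like activators that are known to regulate themselves and each other through such exons. The TRA2A exon, 301 nt at chr7:23522132-23522432, held 379 and 604 cDNAs in dyskerin, 6 and 18 in GAR1, and 81 and 0 in IgG for dyskerin. That was 81.3% (77.5 to 84.6) and 82.2% (79.2 to 84.8) of the cDNAs of the gene in dyskerin, 18 of 54 in the second GAR1 library (33.3%, 22.2 to 46.6), and 81 of 84 in the first IgG library (96.4%, 90.0 to 98.8). Its density in dyskerin was 743 and 1070 CPM per kb, against 32.0 and 35.2 in the TRA2A CDS and 0.799 and 1.19 in the rest of its introns. The exon is also part of an annotated protein-coding transcript.

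The TRA2B exon, 276 nt at chr3:185931577-185931852, held 213 and 361 cDNAs in dyskerin, 1 and 15 in GAR1 and 39 and 0 in IgG for dyskerin, which was 59.7 and 61.8% of the gene in dyskerin and 39 of 52 in the first IgG library (75.0%, 61.8 to 84.8). It reached 456 and 697 CPM per kb in dyskerin, against 48.3 and 69.5 in the CDS and 1.27 and 1.23 in the rest of the introns. In both TRA2 genes the poison exon thus outweighed the coding exons more than 9-fold per kilobase. In the first IgG library for dyskerin the exons of TRA2A and TRA2B reached 1837 and 964 CPM per kb, above both dyskerin libraries.

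In SRSF7 and SRSF10 the poison exon stood nearer to the CDS in level, close to it in SRSF7 and above it in both libraries in SRSF10. SRSF7, an SR protein with a zinc knuckle, had a 449-nt exon at chr2:38748898-38749346 with 264 and 298 cDNAs in dyskerin, 0 in GAR1 and 9 and 0 in IgG for dyskerin. Its density in dyskerin was 347 and 354 CPM per kb, against 319 and 332 in the CDS and 4.95 and 7.20 in the rest of the introns. SRSF10, an SR protein that represses splicing when it is dephosphorylated, had a 363-nt exon at chr1:23977911-23978273 with 165 and 356 cDNAs in dyskerin, 0 and 17 in GAR1 and 16 and 0 in IgG for dyskerin. Its density was 268 and 523 CPM per kb, against 207 and 295 in the CDS and 2.45 and 7.23 in the rest of the introns. In the first IgG library for dyskerin the SRSF7 exon was at 137 CPM per kb, under both dyskerin libraries. The SRSF10 exon was at 301 there, between them.

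SRSF3 had the reverse order, with 34 cDNAs in each dyskerin library in a 456-nt exon of intron 3, or 44.02 and 39.8 CPM per kb against 113 and 93.7 in the CDS. Its intronic rest was at 1.19 and 2.15 CPM per kb, still well under the exon. SRRM2 had 3 such exons with at least 100 dyskerin cDNAs, in introns 9 (118 and 185), 11 (68 and 58) and 12 (61 and 54). These held 0 cDNAs in the first IgG library for dyskerin, where the CDS of SRRM2 had 332, and 0 of 337 cDNAs of the gene there allows at most 1.13% in each exon (Wilson). In dyskerin the exon of intron 9 held 2.59 and 3.24% of the cDNAs of SRRM2, above that limit in both libraries. This exon covers 262 of the 639 nt of intron 9 and held 303 of the 727 dyskerin cDNAs of that intron. It was therefore about as dense as the rest of the intron. All 727 lay in exons of transcripts annotated as retained introns, and the first IgG library had 0 cDNAs in the whole intron. Sites were called within each library, so the limit covers counting error among called cDNAs only, and a difference was not tested. The exon of intron 11 held 1.49 and 1.02% and that of intron 12 held 1.34 and 0.946%, in each case on both sides of the limit, so that a difference from the IgG library was not detectable at this depth.

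**Figure D4:**
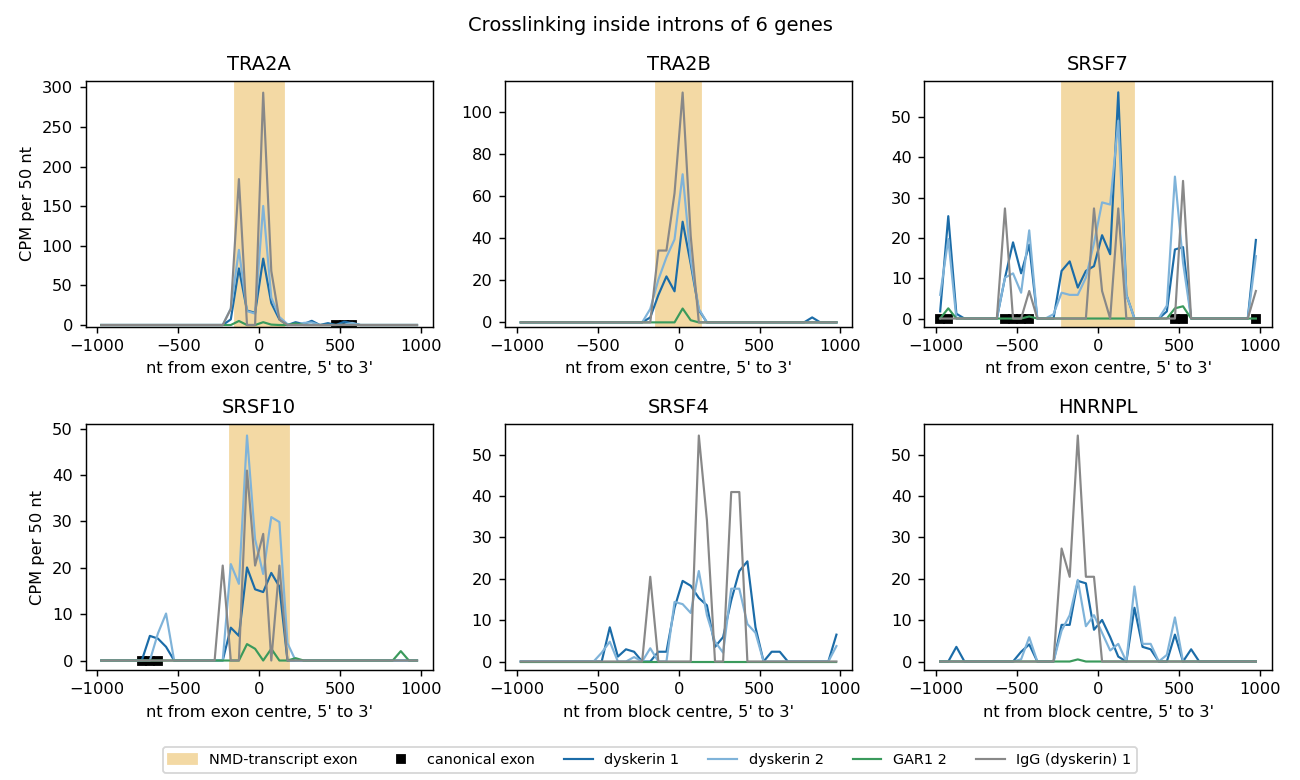
CPM per 50 nt (vertical axis) around the poison exon of TRA2A, TRA2B, SRSF7 and SRSF10 (shaded) and around the densest 1000-nt block of an intron of SRSF4 and HNRNPL, by distance in nt from its centre, for both dyskerin libraries, the second GAR1 library and the first IgG library for dyskerin, with black squares on canonical exons. The cDNAs of the first 4 genes rise inside the shaded exon and fall to near 0 at its ends. The IgG line reaches the highest value in TRA2A, TRA2B, SRSF4 and HNRNPL, and a dyskerin line does so in SRSF7 and SRSF10.

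Dense blocks also lay outside poison exons. In SRSF4, a long SR protein, a 1000-nt block of intron 1 at chr1:29178797-29179796 held 301 and 267 cDNAs in dyskerin, 0 in GAR1 and 28 and 0 in IgG for dyskerin, and 0 exons of other SRSF4 transcripts overlap it. The block took 85.0% of the 668 dyskerin cDNAs of that intron on 4.73% of its 21128 nt. In HNRNPL, which binds CA repeats, a block of intron 6 at chr19:38841924-38842923 held 192 and 220 cDNAs in dyskerin, 0 and 1 in GAR1 and 21 and 0 in IgG for dyskerin, or 96.3% of the 428 dyskerin cDNAs of that intron. Of these, 138 fell in a transcript annotated as a retained intron and 0 in an NMD exon. Both introns do hold annotated poison exons elsewhere, 495 nt in SRSF4 and 70 nt in HNRNPL, with 0 dyskerin cDNAs.

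Every member had a leading intron, with between 5 (SRSF9) and 1072 (TRA2A) dyskerin cDNAs. In RBM25 a block of intron 9 had 133 and 213 cDNAs in dyskerin, 0 and 9 in GAR1 and 35 and 0 in IgG for dyskerin. In LUC7L3 a block of intron 2 had 179 and 86 in dyskerin, 3 and 0 in GAR1 and 24 and 0 in IgG for dyskerin. In HNRNPC, which binds U tracts, a block of the 29081-nt intron 2 had 80 and 52 in dyskerin, 2 and 14 in GAR1 and 4 and 0 in IgG for dyskerin. A block of intron 1 of HNRNPA2B1 had 59 and 64 cDNAs in dyskerin, 0 and 27 in GAR1 and 0 in IgG. In HNRNPA1 a block of intron 10 had 50 and 80 cDNAs in dyskerin, 0 and 3 in GAR1 and 6 and 0 in IgG for dyskerin, and 90 of its 130 dyskerin cDNAs lay in exons of NMD transcripts, which are not poison exons as defined above. Dense intronic blocks were therefore found in both families, and so were blocks that overlap exons of NMD transcripts. Scaled to the library total, the first IgG library for dyskerin was above both dyskerin libraries in the RBM25 and LUC7L3 blocks. It was between them in HNRNPA1 and below both in HNRNPC and HNRNPA2B1.

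Along the mature message the contacts were uneven and repeated between libraries. The 100 nt with most cDNAs were the same in both dyskerin libraries in the 4 genes examined. In SRRM2, positions 2301 to 2400 held 360 and 477 cDNAs in dyskerin, 5 and 14 in GAR1 and 57 and 0 in IgG for dyskerin, which was 9.07% of its exonic dyskerin cDNAs, and 56 of 91 bins had cDNAs in both dyskerin libraries. In RBM25, positions 1501 to 1600 held 343 and 615 in dyskerin, 4 and 16 in GAR1 and 79 and 3 in IgG for dyskerin (16.01%). In LUC7L3, positions 801 to 900 held 231 and 357 in dyskerin, 0 in GAR1 and 60 and 0 in IgG for dyskerin (15.9%).

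In HNRNPA2B1, positions 701 to 800 held 496 and 547 cDNAs in dyskerin, 7 and 56 in GAR1 and 91 and 0 in IgG for dyskerin (18.1%). The first IgG library shared some of these peaks and not others. Among bins with at least 100 dyskerin cDNAs, its CPM was above both dyskerin libraries in 9 of 23 bins of SRRM2, 12 of 17 of RBM25, 7 of 11 of LUC7L3 and 6 of 11 of HNRNPA2B1, and it was below both in 11, 4, 2 and 5. It had 0 cDNAs in 6 of those bins in SRRM2, 1 in RBM25 and 3 in HNRNPA2B1. The 100 nt from position 7801 of SRRM2, chosen after its values were seen, had 179 and 153 CPM in dyskerin and 54.6 CPM in the first IgG library. It held 303 and 287 cDNAs in dyskerin and 8 in that IgG library.

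**Figure D5:**
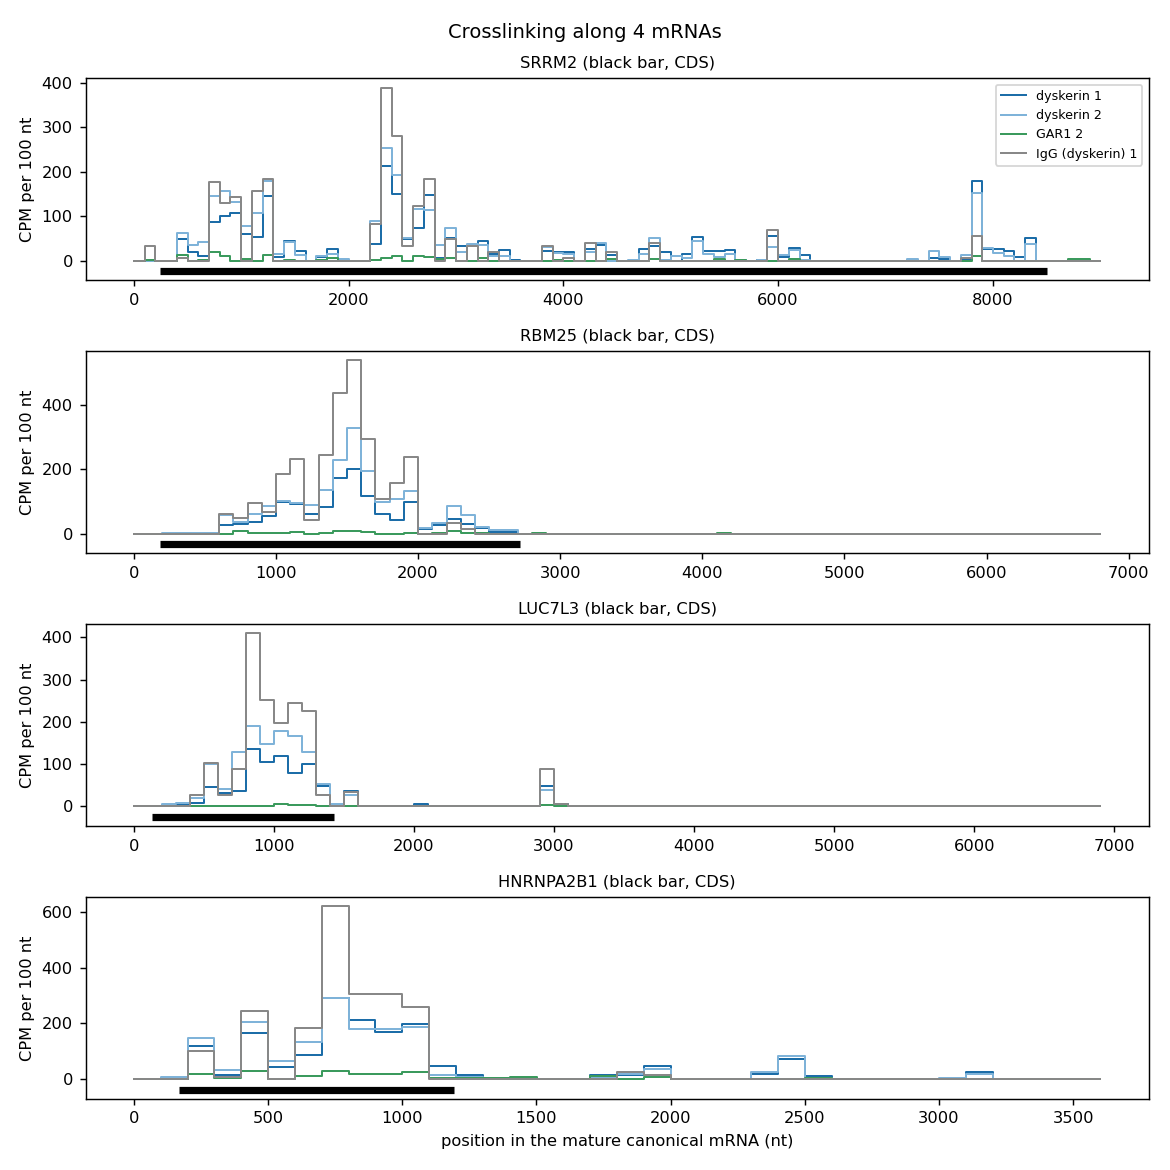
CPM per 100 nt (vertical axis) along the mature canonical mRNA (horizontal axis, nt) of SRRM2, RBM25, LUC7L3 and HNRNPA2B1 in both dyskerin libraries, the second GAR1 library and the first IgG library for dyskerin, with the CDS as a black bar. The cDNAs lie mainly within the CDS, and the IgG line stands above the dyskerin lines at the highest peak of each gene.

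The stretches of CDS that encode the RS domains were compared with the rest. Codons in stretches with at least 50% arginine and serine over 20 residues, and at least 4 of each, made up 17.6% of the codons of the 23 SR and speckle genes and took 24.8 and 24.2% of their CDS cDNAs in dyskerin, a density ratio over the rest of the CDS of 1.55 and 1.503. The share was 27.8% in the second GAR1 library and 26.6% in the first IgG library for dyskerin. In the summed dyskerin libraries 13 of the 23 genes had a ratio above 1. It was 5.44 in RBM39, a U2AF-related factor, 3.46 in SON, 2.39 in LUC7L3 and 2.10 in SRSF7, where 556 of 834 CDS cDNAs were in the RS stretch. It was 0.48 in BCLAF1, 0.24 in SRSF3 and 0 in SRSF9, so that the ratio lay on both sides of 1 within the family.

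Stretches with at least 30% glycine over 20 residues made up 15.6% of the codons of the hnRNP genes that have any and took 27.2 and 23.2% of their CDS cDNAs in dyskerin. The share was 27.6% in the second GAR1 library and 32.5% in the first IgG library for dyskerin, both above the 2 dyskerin libraries. In dyskerin it was carried by HNRNPA2B1, with 2440 of its 4981 CDS cDNAs in the glycine-rich stretch, and only 4 of the 14 genes had a ratio above 1. HNRNPA3, a paralog of HNRNPA2B1, had 60 of its 68 CDS cDNAs there.

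At CDS sites, the cross-linked base was U in 23.4 and 23.1% of sites of SR and speckle genes in dyskerin, against 20% U in their CDS. For hnRNP genes it was U in 27.6 and 27.4% of sites in dyskerin, against 20.6% of their CDS. The first IgG library for dyskerin gave 19.7% for SR and speckle genes and 30.3% for hnRNP genes. The excess of U in hnRNP genes was therefore seen with dyskerin and IgG alike, and in SR and speckle genes with dyskerin but not in that IgG library, a difference that was not tested.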

How the data were processed

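iCLIP was performed by the authors on nuclei of U2OS cells. Per the submitters' processing notes and the methods, reads were examined with FastQC 0.11.9, trimmed with cutadapt, for which no version was found, and aligned to GRCh38 with STAR 2.7.0e. iCount, run by the authors, kept reads with several alignments, counted cDNAs by barcode and called significant sites in each library on its own. The deposited values used here are counts of cDNAs at those sites, not normalized. The deposited clusters of sites were not used.

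Sites were assigned by strand to GENCODE 44 genes, short RNAs first (including 5 nt upstream), then exons, then introns, and to regions of the canonical transcript. CPM values are cDNAs scaled to all peak cDNAs of a library. Genes with at least 10 cDNAs in at least 2 libraries entered an edgeR 4.0.16 quasi-likelihood F test (limma 3.58.1, R 4.3.3), scaled in the same way without TMM, over 4 groups with 4 residual degrees of freedom. Tests were two-sided, with Benjamini-Hochberg adjustment over all genes and a threshold of 0.05. The SE of a log2 fold change was taken as its absolute size over the square root of the F statistic. It therefore restates the same test as the p-value. The fit was also run on simulated counts with a fixed spread that was not estimated from these data. That run does not show how the fit performs at the spread seen here. Region counts were fitted in the same way. Tables were made with Python 3.11.15, pandas 2.3.3, numpy 2.4.6, scipy 1.17.1, Biopython 1.88 and matplotlib 3.10.9.

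The members and all gene lists were chosen with earlier results of these data known. Full values are given for the 6 SR and speckle genes and the 6 hnRNP genes of highest mean dyskerin CPM and for the 10 called members of smallest p, and printed sites for the leading 5 of each family. Fitted fold changes of GAR1 over IgG are not given gene by gene, since 25 of the 38 members were at 0 in a group. The alternatives were TMM, scaling to protein-coding cDNAs, DESeq2 1.42.0, no filter, a minimum of 50 cDNAs, the replicate number as a block, sites of at least 3 cDNAs, sites in a single gene, each site counted once, regions from every protein-coding transcript, leaving out SRRM2 and HNRNPA2B1, and leaving out each replicate.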

Additional observations from a re-analysis of the deposited data

How the results depend on the processing

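For dyskerin over GAR1, 38 members were called. Scaling left 6 with TMM and 5 with protein-coding cDNAs, and counting each site once left 9, while DESeq2, no filter, a minimum of 50 cDNAs, sites of at least 3 cDNAs and sites in a single gene gave 36, 36, 35, 36 and 30. Leaving out each replicate gave 0 to 38, with 0 without either dyskerin replicate, 29 without GAR1 replicate 1 and 35 without GAR1 replicate 2. For dyskerin over IgG, 0 became 1 with a minimum of 50 cDNAs and 0 to 1 on leaving out each replicate (1 without either GAR1 replicate). For GAR1 over IgG, 0 became 3 with DESeq2. Over all genes, the 5794 higher in dyskerin over GAR1 became 3384 with DESeq2, 2513 with TMM, 1924 with protein-coding scaling, 2016 with each site once, 3174 with a minimum of 50, 2421 with sites of at least 3 cDNAs and 6 to 5808 on leaving out each replicate. The 0 genes higher in dyskerin over IgG became 759 with a minimum of 50 cDNAs, 595 without GAR1 replicate 1 and 503 without GAR1 replicate 2, and the 0 higher in GAR1 over IgG became 68 with DESeq2.

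With the replicate number as a block, 26 members were called in dyskerin over GAR1 and 0 in the other comparisons, with 53 region features. The numbers do not pair the samples, since the deviations of same-numbered libraries correlated between −0.086 and 0.115. The 88 region features called in dyskerin over GAR1, all higher, by alternatives chosen after seeing the data, became 0 with TMM, 25 with protein-coding scaling (22 higher and 3 lower), 38 with DESeq2, 56 with a minimum of 50 cDNAs, 22 with each site once (18 higher and 4 lower) and 0 to 92 on leaving out each replicate. The 0 in dyskerin over IgG became 6 higher with a minimum of 50 cDNAs, 1 lower with no filter and 0 to 2 on leaving out each replicate (2 higher without either GAR1 replicate, 1 lower without IgG for dyskerin replicate 1), and the 0 in GAR1 over IgG became 2 with DESeq2.

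In dyskerin over GAR1, the log2 fold change fell below 0 with each site counted once for SRRM2 (−0.57), RBM25 (−0.26), SRSF5 (−1.50), HNRNPA2B1 (−1.81), HNRNPU (−0.35), HNRNPH1 (−1.31) and HNRNPDL (−0.26), with TMM for SRSF5 (−0.60), HNRNPA2B1 (−0.55) and HNRNPH1 (−0.48), and with protein-coding scaling for the same genes (−0.61, −0.54 and −0.66). In dyskerin over IgG, where no member was called, signs changed for RBM25 (0.079 with DESeq2, 0.89 with sites of at least 3 cDNAs, −0.74 to 1.33 on leaving out each replicate), LUC7L3 (0.086, 0.84 and −0.76 to 1.68, and 0.35 with the block), PNN (−0.15 with protein-coding scaling, −0.47 with each site once, −0.47 to 12.4 on leaving out each replicate), SRSF5 (−1.24, −1.12 and −0.026 to 0.29), HNRNPA2B1 (−0.95, −1.26 and −0.30 to 0.81) and HNRNPDL (−0.20 and −0.52). The cause was not tested. Over all alternatives for the named genes, 121 values kept their direction and side of the threshold in dyskerin over GAR1, 69 kept the direction only and 13 changed sign, and in dyskerin over IgG 183 kept both and 20 changed sign.

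The SR and speckle over hnRNP ratio of 1.56 became 1.63 with sites of at least 3 cDNAs, 1.51 with each site once, 1.91 with regions from every transcript and 2.02 without SRRM2 and HNRNPA2B1. The CDS share of 79.6% in SR and speckle genes became 83.5, 75.8 and 76.8% with sites of at least 3 cDNAs, each site once, and without those genes. The 77.5% of hnRNP genes became 83.4, 71.4 and 75.5%, and 79.3% with sites in a single gene. The intron share of 16% in SR and speckle genes became 13.5, 18.3 and 17.6%, and 13.2% with every transcript. The 12.5% of hnRNP genes became 7.73, 17.0 and 16.3%, 9.97% with every transcript and 11.5% with sites in a single gene. In the second IgG library for dyskerin, 3 cDNAs amount to 367 CPM, which limits what a 0 there shows.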
